A study of Rattus norvegicus with 8 samples.

Results

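The positions described here are cytosines of the CHH context (H is A, C or T) whose next base is T, written CT below. They were taken from chromosomes 1 to 20 wherever all 8 libraries listed them. There were 1206148 such positions, which is 30.8% of the 3910323 CHH positions and 19.4% of the 6222733 cytosines of any context that all 8 libraries shared. The assay was reduced representation bisulfite sequencing (RRBS), in which the enzyme MspI cuts genomic DNA at CpG-containing sites and the short fragments are bisulfite-treated and sequenced. Bisulfite turns unmethylated cytosine into uracil, which is read as T, while methylated cytosine is still read as C. The animals were male Sprague Dawley rats, and 4 libraries came from hippocampus and 4 from hypothalamus. All 8 libraries carry the label of DHA feeding for 6 weeks, begun at an age of 2 months. DHA, or docosahexaenoic acid, is a fatty acid of the omega-3 kind. The labels' feeding protocol also mentions fructose without saying which animals received it. The study's chow-fed animals were not analysed here. The one contrast was therefore between tissues, and a feature of the diet cannot be told apart from a feature of the strain.

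In mammals most DNA methylation lies at CpG, where it is copied at each division by DNMT1. Methylation outside CpG is set anew by DNMT3A and accumulates after birth in neurons, above all where the next base is A and in the trinucleotide CAC. CT is known as a weaker target of DNMT3A than CA, and CC as the weakest, so CC positions are often used to estimate how many cytosines bisulfite failed to convert. Both tissues mix neurons with glia and other cells, so fewer methylated cells and less methylation per cell cannot be told apart in these data. The labelled tissues were not checked against marker genes here.

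Depth at the shared CT positions ranged from 28246048 calls in hypothalamus 3 to 92392025 in hippocampus 4. The median was 21 to 73 calls a position. Counting error of the library levels was therefore small: in the shallowest library the 95% Wilson interval of the CT level ran from 1.01% to 1.02%. Such intervals cover counting error only and take calls as independent. The sources used here do not say whether duplicate reads were removed. The libraries differed much more in CC level, which ranged from 0.310% to 1.85%. It was above 1% in hippocampus 3 and 4 and hypothalamus 1 and 4, and between 0.310% and 0.412% in the other four.

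CT positions were methylated above CC in every library. The CT level (methylated calls over all calls) of hippocampus 1 to 4 was 0.912%, 0.769%, 2.51% and 2.67%, and that of hypothalamus 1 to 4 was 1.75%, 0.758%, 1.01% and 2.14%. The CC level of the same libraries was 0.370%, 0.332%, 1.76% and 1.85% in hippocampus and 1.0%, 0.310%, 0.412% and 1.01% in hypothalamus. The raw CT level thus followed the unconverted background of the library. After subtraction of CC, the CT excess was 0.543, 0.437, 0.748 and 0.816 percentage points in hippocampus 1 to 4. In hypothalamus 1 to 4 it was 0.747, 0.448, 0.602 and 1.12 points. The mean was 0.683 ± 0.227 points (SD, n = 8), with 8 of 8 libraries above 0 (two-sided exact sign-flip test, p = 0.0078, the smallest p that 8 libraries allow).

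The excess was larger in the libraries with more unconverted calls, and subtraction did not remove that relation. The 4 libraries of lower CC level had a mean excess of 0.508 points, with a range of 0.437 to 0.602. In the 4 of higher CC level the mean was 0.859 points, with a range of 0.747 to 1.12. These sets do not overlap. How much of the excess in the second set is incomplete conversion that differs between CT and CC was not tested.

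Over all shared positions CT methylation was below CA methylation in every library. The CA excess over CC was 1.75, 1.44, 2.80 and 3.0 points for hippocampus 1 to 4, and 2.12, 1.49, 1.86 and 2.16 points for hypothalamus 1 to 4. CT was lower than CA by 0.999 to 2.19 points in 8 of 8 libraries (exact sign-flip p = 0.0078, Benjamini-Hochberg adjusted over 5 within-library comparisons p = 0.0078). The CT excess amounted to 26.7% to 35.2% of the CA excess in 7 libraries. In hypothalamus 4 it amounted to 52.0%.

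CT positions differed in level by the third base. Where another cytosine of the same strand was listed at the third base, the trinucleotide is CTC, and this held for 492808 positions, or 40.9% of CT. The other 713340 positions are called other CT below. They are CTA and CTT, with any CTC whose last cytosine no library listed. The CTC excess over CC was 1.12, 0.936, 1.08 and 1.2 points for hippocampus 1 to 4, and 1.43, 0.963, 1.28 and 1.80 points for hypothalamus 1 to 4. For other CT it was 0.155, 0.0999, 0.520 and 0.557 points in hippocampus and 0.290, 0.0943, 0.147 and 0.660 points in hypothalamus. CTC exceeded other CT in 8 of 8 libraries, by 0.910 ± 0.228 points (SD, n = 8, exact sign-flip p = 0.0078, adjusted p = 0.0078).

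CTC positions carried most of the CT excess although they are a minority of the positions. Their part of the excess was 82.9% to 87.5% in the 4 libraries of lower CC level. It was 58.8% and 59.4% in hippocampus 3 and 4, 76.8% in hypothalamus 1 and 65.1% in hypothalamus 4. Other CT moved with the background: 0.0943 to 0.155 points in the 4 libraries of lower CC level and 0.290 to 0.660 in the others. The CTC excess of the same sets overlapped, with 0.936 to 1.28 and 1.08 to 1.80 points, but both ends of its range were also higher in the second set.

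**Figure D1:**
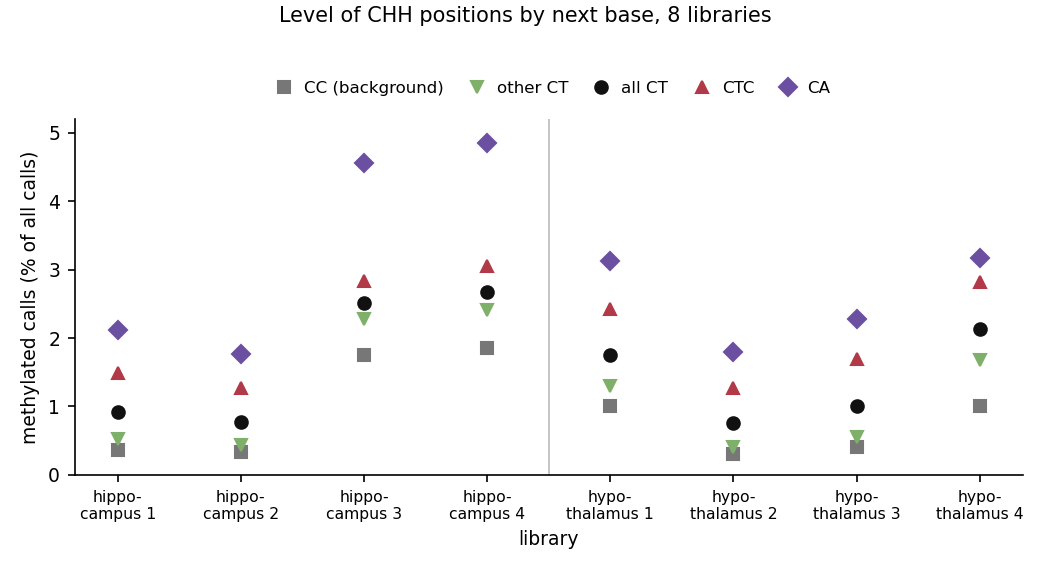
Level (methylated calls as a percentage of all calls, vertical axis) in each of the 8 libraries (horizontal axis) for CC, other CT, all CT, CTC and CA positions shared by all libraries. In every library the order from low to high is CC, other CT, all CT, CTC and CA, with CT levels from 0.758% to 2.67%.

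CTC methylation varied with that of the CpGs around it, and other CT methylation did so by fewer points. Each position was given the pooled level of the CG positions within 50 bases, where any were listed. Below 20% local CG methylation, which held for 222846 CT positions, the CTC excess averaged 0.227 ± 0.153 points (SD, n = 8). At 20% to 80% it averaged 1.46 ± 0.364 points, and at 80% or more it averaged 1.51 ± 0.294 points. The step from the lowest to the highest class was 1.28 ± 0.201 points and was positive in 8 of 8 libraries (exact sign-flip p = 0.0078, Benjamini-Hochberg adjusted over 5 such comparisons p = 0.0078). Other CT averaged 0.226, 0.318 and 0.336 points in the 3 classes. Its step was 0.110 ± 0.0555 points (8 of 8 libraries positive), which was 1.17 ± 0.149 points smaller than the CTC step (smaller in 8 of 8 libraries, exact sign-flip p = 0.0078, adjusted p = 0.0078). From the lowest to the highest class, other CT went from 0.0381 to 0.148 points in the 4 libraries of lower CC level and from 0.415 to 0.524 points in the others.

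The difference between CTC and other CT was small where CpGs were little methylated. CTC minus other CT was between -0.175 and 0.109 points in the 8 libraries below 20% local CG methylation, and between 0.822 and 1.42 points at 80% or more. The CA excess went from 0.569 ± 0.686 to 2.51 ± 0.552 points (SD, n = 8), a step of 1.94 ± 0.266 points that was positive in 8 of 8 libraries (exact sign-flip p = 0.0078, adjusted p = 0.0078). In the lowest class hippocampus 3 and 4 stood apart at CA, with 1.62 and 1.71 points against 0.0838 to 0.375 in the other 6 libraries. At CT in that class, hippocampus 3 and 4 and hypothalamus 4 had 0.398, 0.424 and 0.507 points, and the other 5 had 0.0504 to 0.210.

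**Figure D2:**
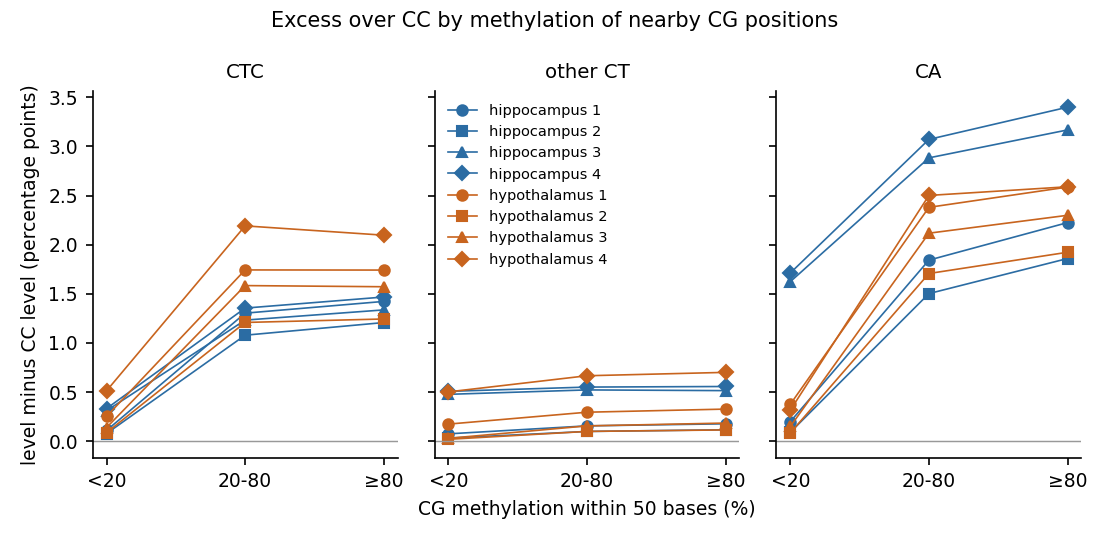
Level minus CC level (percentage points, vertical axis) for CTC, other CT and CA positions in 3 classes of CG methylation within 50 bases (percent, horizontal axis); each line is 1 library. CTC lines climb from 0.0772 to 0.512 points in the lowest class to 1.21 to 2.10 in the highest, while other CT lines stay between 0.0187 and 0.700 points.

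Hippocampus and hypothalamus did not differ in CT methylation beyond the spread of their libraries. The CT excess was 0.636 ± 0.176 points (SD) over the 4 hippocampus libraries and 0.730 ± 0.289 points over the 4 of hypothalamus. They differed by 0.0943 points (two-sided exact permutation test over 70 assignments, p = 0.6, Benjamini-Hochberg adjusted over 5 measures p = 0.75). The smallest p of this test is 0.0286. The sign rests on 1 library: without hypothalamus 4 the difference was -0.0367 points. Within the 4 libraries of lower CC level it was 0.0354 points, and within the 4 of higher CC level 0.153 points, each with 2 libraries a tissue.

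Neither class of CT passed the test. The CTC excess was 1.08 ± 0.108 points for hippocampus and 1.37 ± 0.347 for hypothalamus (SD, n = 4 each, exact permutation p = 0.171, adjusted p = 0.429). Other CT had 0.333 ± 0.239 and 0.298 ± 0.255 points (exact permutation p = 0.886, adjusted p = 0.886). The uncorrected CT level was 1.71% ± 1.01 in hippocampus and 1.41% ± 0.639 in hypothalamus, the opposite order to the excess (exact permutation p = 0.6, adjusted p = 0.75).

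The tests treat the 8 libraries as independent, and 2 pairs across the tissues were unusually close. At 53 CT sites whose level ranged over 50 points or more, with at least 20 calls in every library, hippocampus 4 and hypothalamus 4 differed by 9.25 points on average. Hippocampus 1 and hypothalamus 1 differed by 9.59 points. The other 26 pairs differed by 23.6 to 40.3 points. The labels do not say which libraries came from 1 animal.

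A small set of sites listed as CT was methylated in every library. The context is the one given in the deposited files and was not checked against the animals' own sequence. This holds for all sites named below. Of the 1206148 sites, 3077 had a level of 10% or more in all 8 libraries, a share of 0.255% (Wilson interval 0.246% to 0.264%), and are called persistent below. The same share was 0.0123% at CC, with 190 sites, and 1.54% at CA, with 17792 sites. Among CTC positions the share was 0.587% (2895 sites), and among other CT it was 0.0255% (182 sites), so 94.1% of the persistent CT sites were CTC against 40.9% of all CT. Just inside the threshold, with a lowest level of 10% to 11%, lay 563 sites, and just outside, at 9% to 10%, lay 601.

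Most persistent sites were partly methylated, and CTC was a smaller share of the more methylated ones. The median of their mean level was 23%, and 2930 of them (95.2%) had a mean under 50%. CTC made up 94.2% to 97.0% of the sites with a mean between 10% and 40%. It made up 77.1% of the 70 sites between 50% and 70%, 40.9% of the 44 sites between 70% and 90%, and 54.5% of the 33 sites at 90% or more. At 90% or more in every single library there were 13 sites, 11 of them CTC. At 50% in every library, CT and CC came close, with 68 sites (0.00564%) and 72 sites (0.00465%). The Wilson intervals of these shares overlapped (0.00445% to 0.00715% and 0.00369% to 0.00585%).

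**Figure D3:**
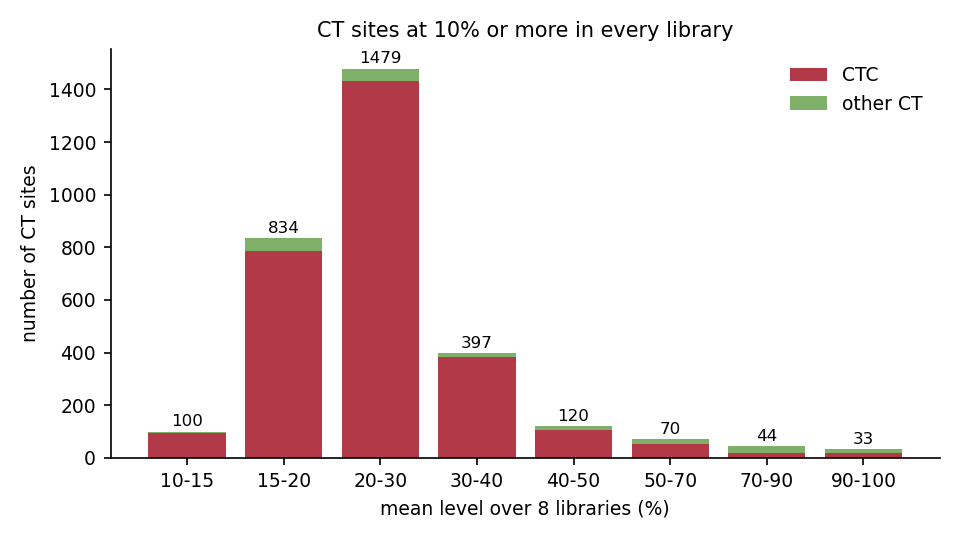
Number of CT sites at 10% or more in every library (vertical axis) by their mean level over the 8 libraries (percent, horizontal axis), split into CTC and other CT; numbers above the bars are totals. The class from 20% to 30% is the fullest, with 1479 sites, and other CT is more than a small part only above 50%.

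The median level of the persistent sites was 22.8%, 20.4%, 20.6% and 22.2% for hippocampus 1 to 4, and 25.6%, 20%, 25% and 26.4% for hypothalamus 1 to 4. The sites were chosen for their level in these same libraries, so the medians are a description. A CG position was listed within 50 bases of 2631 persistent sites (85.5%) and of 87.5% of the CT positions that are not persistent. Over those, the local CG level had a median of 85.9% at persistent sites and 77.5% at the rest, and was below 20% for 0.608% against 21.2%. A persistent CA site lay within 100 bases of 34.8% of persistent CT sites and 10.2% of the others. They fell into 2404 windows of 100 kb, and 14.4% had another persistent CT site within 100 bases, so neighbouring sites can share reads.

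Among persistent sites with a mean under 90%, a limit that leaves out the 33 fullest, the 5 with the highest lowest level were all other CT. The minus-strand site chr20:7177201 had 85.7% to 94.3% over the 8 libraries, with a mean of 89.5%. The plus-strand site chr12:13341037 had 83.3% to 93.2%, and the minus-strand site chr18:59663522 had 83.3% to 94.7%. The plus-strand site chr2:193096148 had 82.8% to 92.9%, and the minus-strand site chr8:85712300 had 78.6% to 94.2%. Calls at these sites ranged from 11 to 103 a library. Coordinates are those of the deposited files, for which the submitters' processing notes name the build rn5.

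The 5 sites of lowest minimum were all CTC and stood at the threshold. A total of 147 sites had a lowest level of exactly 10%, and the 5 with the lowest mean were taken. They were chr16:12084469, chr9:116500522, chr5:147285003, chr15:36214176 and chr12:49176989, with means of 11.9%, 12.4%, 12.5%, 12.7% and 12.9%. Their highest library reached 14.1% to 16.7%.

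In single libraries the share of CT sites at 10% or more was 1.30%, 1.02%, 1.78% and 1.85% for hippocampus 1 to 4, and 2.21%, 1.12%, 2.37% and 4.31% for hypothalamus 1 to 4. The CC share was 0.0363%, 0.0277%, 0.269% and 0.198% in hippocampus and 0.168%, 0.0403%, 0.333% and 0.795% in hypothalamus. CT was higher in 8 of 8 libraries, by 0.995 to 3.51 points (exact sign-flip p = 0.0078, adjusted p = 0.0078). Between the tissues the CT share was 1.49% ± 0.395 and 2.50% ± 1.33 (SD, n = 4 each, exact permutation p = 0.171, adjusted p = 0.429). A single methylated call of 10 passes this threshold, and the 2 shallowest libraries, hypothalamus 3 and 4, had the highest shares. Of these 2, hypothalamus 4 is the deeper and had the higher share. A part of depth in the shares was not tested.

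Regional variation was measured in 100 kb windows with at least 30 CT and 30 CC positions and 1000 calls of each in every library. There were 9304 such windows, holding 958189 CT positions, with a median of 88 a window. The mean excess of a window over 8 libraries had a median of 0.647 points, with 0.219 at the 5th percentile and 1.41 at the 95th. In 7745 windows (83.2%) it was above 0 in all 8 libraries. The counting error of a window's CT level was 0.115 to 0.272 points on average, depending on the library. That error leaves out the CC level and takes calls as independent.

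The regional pattern was shared by the tissues. When windows were ranked by their hippocampus excess, the hypothalamus excess increased in each decile of the windows, from 0.244 points in the lowest to 1.57 in the highest. Across the 9304 windows the Spearman correlation between the tissue means was 0.83, and between single libraries it was 0.49 to 0.80. These values are descriptions: windows are not independent, and all libraries were read at the same positions. From the lowest to the highest decile the CG level of the windows went from 37.0% to 68.6% and the hypothalamus CA excess from 0.864 to 3.07 points. The hypothalamus CTC excess went from 0.421 to 3.15 points, and other CT from 0.133 to 0.493.

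The regional CT excess was set beside other measures of the same windows, some of which share its calls. The Spearman correlation of the mean CT excess was 0.69 with the CA excess and 0.44 with the CG level of the window. With the fraction of CT positions that are CTC it was 0.0014, and that fraction was 41.4% in the lowest decile and 41.8% in the highest. The tissue means had a Spearman correlation of 0.89 for CTC alone and 0.31 for other CT alone.

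Single sites contributed to unequal degrees to the 5 windows of highest mean excess. The highest, at 4.53 points on chromosome 4, is described with the tissue test. Window chr1:105400001-105500000 had 4.04 ± 0.724 points (SD, n = 8), with 3.05 to 5.47 over the libraries. It held 7 persistent CT sites, and without its strongest, the CTC site chr1:105473900 at 53.2% to 84.2%, the mean was still 3.38 points. Window chr16:12000001-12100000 had 3.19 ± 0.516 points with 5 persistent sites, and 2.67 without its strongest. Window chr2:54200001-54300000 had 3.08 ± 0.608 points, and 2.15 without its strongest. Window chr19:59000001-59100000 had 3.68 ± 0.540 points, of which 0.782 were left without the other CT site chr19:59099242, which had 55.6% to 71.7% in every library.

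A window can also fall below 0 through its background. In 57 windows the mean was negative, and in 13 all 8 libraries were. The 2 lowest were picked after their values were seen. Window chr5:53300001-53400000 had -9.16 points, and a single CC position there, chr5:53341850, was at 73.8% to 77.9% in all libraries. Without it the mean was 0.365 points. In window chr2:169400001-169500000 the mean was -4.48 points with, and 0.00483 points without, the CC position chr2:169491140, which was at 80.6% to 82.6%. In both windows 1 CC position set the sign.

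The tissue test over windows called very few. With limma on the window excess, 2 of 9304 windows (0.0215%) passed an adjusted p of 0.05, both higher in hypothalamus, and 486 had an unadjusted p under 0.05. No overlap between the tissues was seen in 153 windows with hypothalamus higher (1.64%) and 37 with hippocampus higher (0.398%). The median difference was 0.0788 points and turned to -0.0494 without hypothalamus 4. The count also changed with single libraries: 40 windows were called without hypothalamus 2, 10 without hypothalamus 3, and 15 without hypothalamus 4. Of the 15, 7 were higher in hypothalamus and 8 in hippocampus. Only 1 window was called without hippocampus 2, without hippocampus 3 or without hypothalamus 1. None was called without a minimum of calls or positions (21747 windows), or by a quasi-binomial model of CT counts without CC subtraction. With at least 5000 CT and CC calls none was called either, but only 373 windows met that limit. The 2 called windows were not among them, as their shallowest libraries had 3277 and 1426 CT calls.

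Window chr4:192000001-192100000 had 2.91, 2.00, 3.11 and 2.37 points for hippocampus 1 to 4, and 8.77, 4.13, 8.17 and 4.81 for hypothalamus 1 to 4. Every hypothalamus library was above every hippocampus library, by 3.87 ± 0.510 points on average (SE, limma, adjusted p = 2.80e-05). That SE and p use a variance moderated over all windows. The SD of the window's own libraries was 0.510 points in hippocampus and 2.34 points in hypothalamus. A single plus-strand CT position, chr4:192063514, held 52.8% of the window's methylated CT calls. Its level was 4.53%, 5.30%, 10.4% and 6.50% in hippocampus and 39.4%, 15.5%, 37.0% and 17.3% in hypothalamus, with 513 to 2021 calls. Without that position the window difference was 0.290 points and the tissues overlapped.

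Window chr10:73300001-73400000 had 1.17, 1.16, 1.12 and 0.761 points for hippocampus 1 to 4, and 2.44, 2.12, 2.39 and 2.20 points for hypothalamus 1 to 4. The difference was 1.23 ± 0.245 points (SE, limma, adjusted p = 0.0496), next to the threshold. It did not rest on its strongest site alone. Without that site, chr10:73348533, the difference was 0.963 points, and the lowest hypothalamus library (1.64) was still above the highest hippocampus library (0.922). No other site was left out, so how far it was spread over the window was not tested. The CA excess of this window was 4.89 points.

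**Figure D4:**
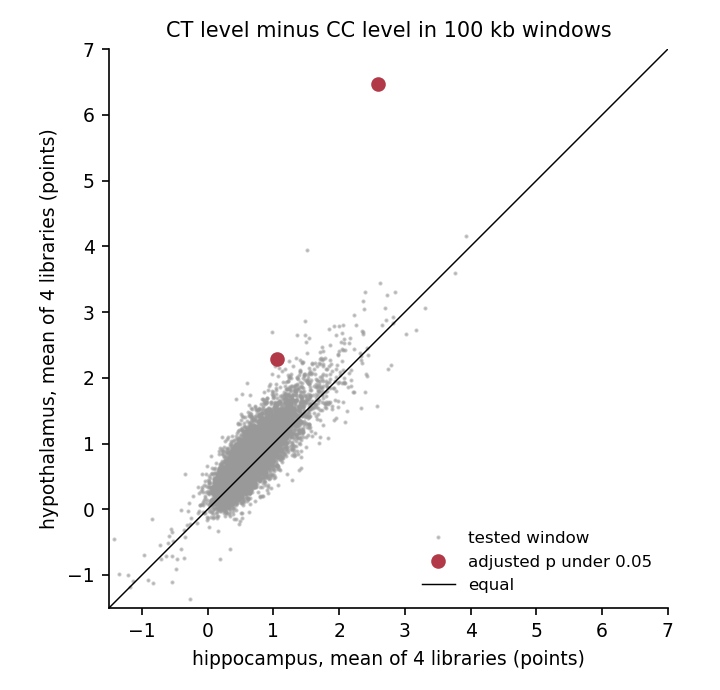
CT level minus CC level in 100 kb windows, as the mean of 4 hippocampus libraries (horizontal axis, percentage points) against the mean of 4 hypothalamus libraries (vertical axis); grey points are 9301 tested windows, red points the 2 called ones, and 3 windows below -1.5 points are outside the axes. Points lie along the line of equality, with the called windows at 6.47 against 2.60 points and at 2.29 against 1.05 points.

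Single CT sites with a mean level of 5% to 95% were tested by a quasi-binomial model with moderated dispersion. Of 44261 tested sites, 204 (0.461%) passed an adjusted p of 0.05 with a difference of 10 points or more. The higher tissue was hypothalamus at 180 (0.407%) and hippocampus at 24 (0.0542%). CTC made up 92.8% of the tested sites and 79.4% of the called ones. Of the 276 tested sites with a mean above 40%, CTC made up 72.5%, but only 17 of the calls lay there. Why CTC was a smaller share of the called sites was not tested. Of the persistent sites, 3061 were tested and 27 were called (0.882%), 17 of them higher in hypothalamus. The median difference over all tested sites was 1.70 points, and 1.04 without hypothalamus 4.

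The number of calls depended on the treatment of the spread. A block for the replicate number gave 425 calls, 378 higher in hypothalamus and 47 in hippocampus. With the dispersion of each site alone none was called, although 2408 had an unadjusted p under 0.05, and limma on log2 odds called none, with 4741 under 0.05. Without 1 library the count was 84 (hippocampus 2), 98 (hypothalamus 1), 132 (hippocampus 1) or 581 (hypothalamus 2), and for the other four 159 to 227.

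No overlap between the tissues was seen at 136 of the 204 called sites, 124 of them higher in hypothalamus, and the sites named next were chosen among these. Of all tested sites 5.70% had no overlap, 4.51% with hypothalamus higher and 1.19% with hippocampus higher. The higher mean was in hypothalamus at 66.8% of all tested sites, and at 60.2% without hypothalamus 4. Of the windows, 65.4% were higher in hypothalamus, and 40.7% without hypothalamus 4. Tested sites were kept by their mean over all 8 libraries without CC subtraction, so a high level in either tissue could bring a site in. These shares and the split of the calls by tissue are descriptions, not support for a direction. The plus-strand site chr13:91576058 was at 56.1%, 54.1%, 58.2% and 48.9% for hippocampus 1 to 4, and at 95.3%, 98.6%, 90% and 100% for hypothalamus 1 to 4 (quasi-binomial, adjusted p = 3.94e-11, 30 to 94 calls). The minus-strand site chr19:24051998 was at 62.0%, 55.6%, 71.1% and 65.1% in hippocampus and 95.6%, 94.4%, 94.3% and 97.4% in hypothalamus (adjusted p = 8.71e-09). Both are other CT, partly methylated in hippocampus and nearly fully in hypothalamus. The CTC site chr11:34941605 was at 16.1%, 9.09%, 6.06% and 5.71% in hippocampus and 33.3%, 43.2%, 63.6% and 27.3% in hypothalamus (adjusted p = 0.00342), with as few as 11 calls.

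Toward hippocampus, the CTC site chr19:51279220 was at 55.6%, 55.8%, 47.1% and 61.0% for hippocampus 1 to 4, and 18.3%, 26.5%, 23.1% and 35.1% for hypothalamus 1 to 4 (quasi-binomial, adjusted p = 0.00303). The CTC site chr19:51279209 on the same strand lies close enough to share its reads. It was at 36.5%, 25%, 28.2% and 35.1% in hippocampus and 8.33%, 6.25%, 7.69% and 16.2% in hypothalamus (adjusted p = 0.00654). The other CT site chr13:64825567 was at 55.6%, 51.7%, 60% and 65.7% in hippocampus and 24.4%, 46.1%, 30% and 47.2% in hypothalamus (adjusted p = 0.0499). The pair on chromosome 19 and this site are partly methylated in both tissues, beside CpGs whose own level within 50 bases was 54.6% and 47.5%.

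Hypothalamus 4 had the largest CT excess of all libraries, 1.12 points against a mean of 0.620 in the other 7. That is a surplus of 0.503 points. It belongs to the set of higher CC level, where hypothalamus 1 and hippocampus 3 and 4 had 0.747, 0.748 and 0.816 points. Hypothalamus 4 is 1 library, so this is a description without a test. The surplus was genome-wide: hypothalamus 4 was the highest library on 20 of 20 chromosomes, by 0.472 to 0.539 points over the mean of the others. It was 0.505 points on the plus strand and 0.502 on the minus strand, 0.483 to 0.518 in 5 classes of depth, and 0.486 to 0.521 in 5 classes of distance from the start of a covered stretch. It was the highest library in 58.4% of the 9304 windows, where the next had 15.5%.

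The base before the cytosine divided the surplus. After a C listed on the same strand or a G, which is a C listed on the opposite strand (408654 positions), the excess of hypothalamus 4 was 0.782 points against a mean of 0.618 in the others, a surplus of 0.164 points and rank 3 among the 8 libraries. After neither (797494 positions, preceded by A, T or a base that no library listed), it was 1.31 points against 0.621, a surplus of 0.685. Each excess here was taken over CC positions after the same bases. Both classes by the third base showed a surplus, 0.658 points at CTC and 0.394 at other CT.

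Without the CC subtraction, the CT level after neither minus that after a listed C or G showed the same split. At other CT it was 0.707 points in hypothalamus 4 and 0.0193 to 0.0787 in the other 7 libraries. At CTC it was 0.906 against 0.204 to 0.309 points. At CTG, a CHG trinucleotide outside the set, it was 0.585 against 0.0200 to 0.105 points. At CA it was 0.722 against 0.303 to 0.458 points, while at CC it was 0.240 points, below hippocampus 3 and 4 (0.298 and 0.317) and above the other 5. Among these, hypothalamus 1, with nearly the same CC level, had 0.0874 points.

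**Figure D5:**
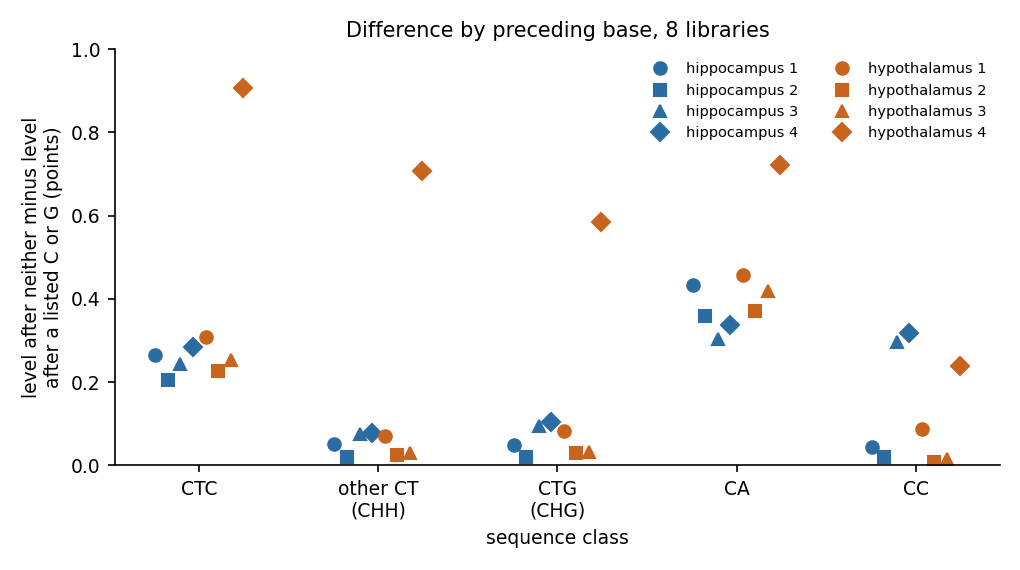
Level after neither a listed C nor G minus level after a listed C or G (percentage points, vertical axis) in 5 sequence classes (horizontal axis), with 1 symbol per library. Hypothalamus 4 (orange diamonds) stands at 0.906, 0.707, 0.585 and 0.722 points at CTC, other CT, CTG and CA, above all others, and at 0.240 points at CC, below hippocampus 3 and 4.

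The surplus was also present where CpGs were little methylated. Below 20% local CG methylation it was 0.320 points, and there the CT level after neither exceeded that after a listed C or G by 0.590 points in hypothalamus 4 and by 0.0119 to 0.0947 in the others. In that class its excess was 0.512 points at CTC, the highest of the libraries, and 0.501 points at other CT, between hippocampus 3 and 4 (0.476 and 0.507). Its CA excess in the class was 0.316 points, inside the range of the other libraries and below its own CT excess of 0.507 points.

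The division by preceding base was also seen at single sites of hypothalamus 4. Of 62350 CT sites at 10% or more in exactly 1 library, 29971 (48.1%) were in hypothalamus 4, and hypothalamus 3, which is shallower, had 10246 (16.4%). Of those in hypothalamus 4, 18.6% followed a listed C or G, against 29.1% to 35.4% in the other libraries and 33.9% of all CT positions. Their median level was 12% at a median of 21 calls. What sets hypothalamus 4 apart was not tested.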

How the data were processed

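The authors deposited, for each of the 8 RRBS libraries, counts of methylated calls and of all calls at every listed cytosine of either strand, with the sequence context and dinucleotide. The deposited fraction equals methylated over all calls, and the tests did not use it. No position in the files had under 10 calls, so shallower ones were not analysed here. Bowtie and the build rn5 are named per the submitters' processing notes. For the methylation caller, read trimming and duplicate reads, nothing was given in the sources used here. No rn5 genome or annotation was used, so no gene or feature is named, and the third and preceding bases were read from listed positions of any library.

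Levels are methylated over all calls, summed over positions, and the excess is the CT level minus the CC level in percentage points. Libraries were compared with two-sided exact permutation and sign-flip tests, computed over all assignments or sign patterns with NumPy 2.4.6. Wilson intervals were computed with SciPy 1.17.1. Windows were tested with limma 3.58.1 (R 4.3.3, trend on mean log2 calls). Single sites were tested with a quasi-binomial model whose dispersion was moderated by limma's squeezeVar and not below 1. Both were adjusted by Benjamini-Hochberg over all windows or sites tested. Both were also run on simulated data, whose outcome is not used here as support for the calls. The simulated window counts held no spread between libraries beyond counting error and a shift in background. The named windows are the 5 of highest mean excess and the called ones. The named sites are, among persistent ones with a mean under 90%, the 5 of highest and of lowest minimum, and the 3 called of largest difference each way without overlap. The members, lists and tests were chosen with earlier results of these data known. Replicates are separate samples per the labels, which name no animals, so p-values measure the spread between these samples. For windows and single sites that spread was moderated across all windows or sites tested. Replicate numbers were not taken to pair the libraries: over the 9304 windows, deviations of same-numbered libraries correlated at 0.066, 0.037, 0.0012 and 0.033, under the 0.1 required of every pair. The pairs numbered 1 and 4 were nonetheless close at widely ranging sites, as the report gives.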

Additional observations from a re-analysis of the deposited data

Results flagged for a closer look

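Within each tissue the 4 libraries were compared for a value far from the rest, by the gap to the nearest library over the whole range, with Dixon's 95% limit for 4 values. Of 72 groups of 4 examined, 8 passed, and chance passes about 1 in 20. The level after neither a listed C nor G minus the level after one was set apart in hypothalamus 4 at 4 overlapping classes. It was 0.764 points over all CT against 0.0888 to 0.146 in the other hypothalamus libraries, 0.707 at other CT against 0.0243 to 0.0708, 0.906 at CTC against 0.228 to 0.309, and 0.585 at CTG against 0.0300 to 0.0821. These 4 values share positions or calls, and the split was chosen after the excess of hypothalamus 4 was known, so they are no independent support for it and should not be set against the chance rate.

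Hypothalamus 2 was set apart for CTC minus other CT, with 0.868 points against 1.137 to 1.140 in the other 3. In window chr10:73300001-73400000, hippocampus 4 had an excess of 0.761 points against 1.12 to 1.17 in the other hippocampus libraries. In window chr2:169400001-169500000, whose negative value rests on 1 CC position, hippocampus 3 had -4.32 points against -4.75 to -4.68, and hypothalamus 4 had -3.88 points against -4.54 to -4.46.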

How the results depend on the processing

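The mean CT excess of 0.683 points was positive in every library used under 18 alternatives, 8 of which leave out 1 library, from 0.315 (only CT without a listed C at the third base, chosen after seeing the data) to 0.725 points. The tissue difference of 0.0943 points passed no test under any of 21 alternatives (exact p 0.371 to 1), of which the replicate block (smallest p 0.125) and the sets of 2 against 2 libraries (smallest p 0.333) could not pass. It was reversed without hypothalamus 4 (-0.0367 points, range -0.0367 to 0.188 when 1 library is left out), at positions after a listed C or G (-0.0607 points) and at other CT (-0.0353 points), the latter 2 chosen after seeing the data. With the replicate number as a block it was 0.0943 points (exact sign-flip p = 0.375). The surplus of hypothalamus 4 was 0.394 to 0.508 points under 9 alternatives and 0.164 after a listed C or G. Persistent CT sites numbered 601 at 20% or more in every library, 1323 with at least 20 calls, and 3182 to 3597 with 1 library left out. With at least 20 calls the share was 0.237%, against 0.015% at CC.

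Of the windows, 2 were called by limma and 2 with the replicate block. The library-wide CC level, removal of persistent sites and subtraction of the library median each left 1, and leaving out 1 library gave 1 to 40. None was called without a minimum of calls, with 1069 of 21747 windows at an unadjusted p under 0.05. The quasi-binomial model of CT counts without CC subtraction also called none (2 of 9304 under 0.05). At 5000 calls or more none of 373 windows was called (13 under 0.05), and this limit had removed both windows of the main test. CTC alone gave 9 of 3304 windows. Of the sites, 204 of 44261 were called in the main test. With fewer sites tested, 99 of 17281 were called at 20 calls or more, and 80 of 12984 after a listed C or G. Over the 44261 sites the count became 36 at a difference of 20 points and 425 with the replicate block. It was 0 with the dispersion of each site alone (2408 with an unadjusted p under 0.05) and 0 by limma on log2 odds (4741). With 1 library left out it was 84 to 581. The subtraction of the library median, CTC alone and the sites after a listed C or G were chosen after seeing the data. Causes of these changes were not tested. The lowest call count of any library had a median of 17 over the tested sites.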

Other observations

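Persistent CT sites were found on all 20 chromosomes, from 0.184% of CT positions on chromosome 20 and 0.189% on chromosome 12 to 0.323% on chromosome 19 and 0.324% on chromosome 18. Sites shared by fewer libraries formed no second peak before the full set: 11665 CT sites were at 10% or more in exactly 2 libraries, 6091 in 3, 4143 in 4, 3086 in 5, 2564 in 6 and 2385 in 7, against 3077 in all 8. At CC the same counts fell from 617 in 2 libraries to 39 in 6, with 45 in 7 and 190 in all 8. In 1110787 CT positions (92.1%) no library reached 10%, and 27835 (2.31%) had no methylated call in any library.

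The share of called tissue differences among tested CT sites was larger at higher mean level. A call needs a difference of 10 points or more, which leaves little room at a mean of 5% to 10%. The order is therefore in part set by the threshold. It was 0.216% of 30154 sites with a mean of 5% to 10%, 0.833% of 11406 between 10% and 20%, 1.11% of 2425 between 20% and 40%, and 6.16% of 276 above 40%. CTC made up 91.9%, 95.2%, 95.5% and 72.5% of the sites tested in these classes.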
